A study of Mus musculus with 36 samples.

Results

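Aminoacyl-tRNA synthetases are the enzymes that join each amino acid to its transfer RNA. Of 36 listed genes for them, 32 had a probe among the 12394 genes of the arrays. Members were found by their gene symbol, current or older, and the brightest measured probe stood for a gene that had more than 1. Dars, Mars, Qars and Aars2 had no probe and were not analysed here. The 32 comprised 16 cytosolic enzymes, 15 mitochondrial enzymes and Wars, which was kept apart because interferon induces it. Brain arrays measured all 32, heart arrays 30, kidney arrays 31 and liver arrays 29, and 27 were measured in every tissue.

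The arrays carried RNA from FVB mice with a luciferase transgene, all female and 6 to 8 weeks old. The labels used here do not name the promoter of the transgene. Mock mice had no treatment. LPS mice received 4 mg/kg of bacterial lipopolysaccharide into the peritoneal cavity, and LPS+genipin mice received the same LPS and, 10 min later, genipin, a plant iridoid. Tissues of both LPS-treated groups were taken 4 h later, and no time is given for the mock mice. Each of the 12 groups of tissue and treatment held 3 arrays. The study describes genipin at 1, 10 or 100 mg/kg, and the labels do not say which dose the arrayed mice had. They do not say either that arrays of 1 group are different mice, so p-values measure only the spread between arrays, which may be technical. The 3 arrays per group limit the precision of every value.

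A synthetase recognises 1 amino acid and loads it onto the matching transfer RNA, which then carries it to the ribosome. Cytosol and mitochondria keep largely separate sets, both encoded in the nucleus, and the products of Gars and Kars serve both compartments. Several cytosolic enzymes are held together in a multisynthetase complex with the scaffold proteins Aimp1, Aimp2 and Eef1e1. Many cytosolic synthetase genes are known targets of ATF4, the transcription factor of the amino acid response, and Wars, the cytosolic tryptophan enzyme, is known as a gene induced by interferon-gamma. Phenylalanine is loaded by an enzyme built from the subunits Farsa and Farsb, and Eprs charges both glutamate and proline transfer RNAs.

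Promoter sequence is shown for the members whose window holds the letters of the C/EBP-ATF response element, the kind of site through which ATF4 is known to act. RefSeq windows on GRCm38.p6, from 250 bases before to 50 bases after a start, were found for 27 of the 36 listed genes, in 28 windows. Cars, Hars, Hars2, Lars, Nars, Pars2, Rars, Vars and Wars had no entry. The letters TGATGNAA, searched on both strands, were in 5 member windows, those of Aars, Gars, Iars, Tars and Yars. That is 17.9% of the member windows, against 3.97% of 32851 windows of the same length over all genes. All 5 genes are cytosolic enzymes (5 of 13 with a window), and 0 of 14 mitochondrial ones held a match. The following 30-base stretches are 5′ to 3′ in the direction of the gene. In capitals is the match of each window that lies nearest the gene's start site. TTGCATCA and TTTCATCA are matches on the opposite strand.
Aars: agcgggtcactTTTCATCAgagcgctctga
Gars: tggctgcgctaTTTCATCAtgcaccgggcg
Iars: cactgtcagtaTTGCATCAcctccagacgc
Tars: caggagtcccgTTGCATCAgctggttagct
Yars: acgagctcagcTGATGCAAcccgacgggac
They lie at chr8:111033840-111033869 for Aars, chr6:55037960-55037989 for Gars, chr13:49682126-49682155 for Iars, chr15:11399655-11399684 on the minus strand for Tars and chr4:129189895-129189924 for Yars, the others being on the plus strand. The Tars match began 15 bases before the table's start site, and the Gars match 30 bases before it. The Yars, Iars and Aars matches shown began 3, 7 and 9 bases after it. An interferon-stimulated response element core, GAAANNGAA, was in 1 member window (Qars) and in 8.56% of all windows, and a gamma-activated site, TTCNNNGAA, was in 3 (Aars, Kars and Nars2) and in 8.3% of all windows. For Aars and Yars the annotated gene also has a start further upstream than the table's. A match describes letters and is not a measured site of binding.

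Values are the authors' normalized intensities, on a linear scale. Differences are log2 differences between group means ± SE with 3 arrays in each group; p-values come from limma, were adjusted over every gene measured in the tissue, and count as a call under 0.05. Arrays were normalized within a tissue, so levels are not set against each other between tissues, nor between genes. Within a group the arrays correlated at 0.985 to 0.998. Each tissue carried its own markers, with 4 of 7 neuron markers measured in brain and 6 of 6 markers of cardiomyocytes, kidney tubule and hepatocytes in heart, kidney and liver. Summed cardiomyocyte intensity in heart, 390479 to 392903 in mock and 386516 to 392898 with LPS, lay near the scanner's limit and could show little change. The arrays hold whole tissue, in which fewer cells of a type and less RNA per cell cannot be told apart.

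Wars rose more with LPS than any other member read above the floor of low values in heart, kidney and liver, and did not change detectably in brain. In heart its intensity was 1710, 1870 and 1764 on the mock arrays, 5617, 5439 and 5840 with LPS and 2164, 2246 and 2249 with LPS+genipin. Every LPS heart lay above every other heart, and the LPS+genipin hearts lay between the mock and the LPS arrays. The rise with LPS was 1.66 ± 0.06 (adjusted p = 1.61e-07), and the difference from LPS to LPS+genipin was -1.34 ± 0.06 (adjusted p = 1.34e-06). In liver the mock arrays read 652, 630 and 613, the LPS arrays 1785, 1754 and 1656 and the LPS+genipin arrays 871, 828 and 942. The 3 groups did not overlap, with a rise of 1.46 ± 0.06 (adjusted p = 3.47e-07) and a difference of -0.98 ± 0.06 (adjusted p = 9.98e-06) from LPS to LPS+genipin.

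Kidney showed a smaller rise in Wars, from 1454, 1493 and 1541 in mock to 2781, 3041 and 3089 with LPS and 1811, 1570 and 1687 with LPS+genipin. LPS stood 0.99 ± 0.06 (adjusted p = 5.11e-06) above mock, and LPS+genipin differed from LPS by -0.81 ± 0.06 (adjusted p = 2.97e-05). Against mock, LPS+genipin left Wars higher by 0.32 ± 0.06 (adjusted p = 0.0063) in heart and by 0.48 ± 0.06 (adjusted p = 2.38e-04) in liver, and the kidney difference of 0.17 ± 0.06 missed the threshold (adjusted p = 0.0568). In brain the arrays of all 3 groups overlapped, at 3648, 3504 and 3651 in mock, 3248, 3844 and 3754 with LPS and 3615, 3447 and 3545 with LPS+genipin. The brain difference between LPS and mock was 0.00 ± 0.07 (adjusted p = 0.999), with a 95% interval of -0.15 to 0.16, which leaves out the rises seen elsewhere. Equality of the LPS response in the 4 tissues was rejected for Wars (F test, adjusted p = 3.62e-15).

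Interferon-gamma genes set beside Wars, such as Irf1 and the guanylate-binding proteins, rose in brain too. With LPS all measured genes of that list rose: 10 of 10 in brain, 11 of 11 in heart, 12 of 12 in kidney and 12 of 12 in liver. Their median log2 differences were 2.02, 3.87, 4.55 and 3.00. Of all genes 16.4%, 18.2%, 25.3% and 29.3% rose in the same order of tissues. In brain, where Wars did not differ detectably, Ifi47 rose by 4.08 ± 0.08, Gbp2, a guanylate-binding GTPase, by 3.87 ± 0.07 and Gbp3 by 3.04 ± 0.10. With LPS+genipin all of the measured genes were lower than with LPS in each tissue, by medians of -1.63, -2.28, -1.80 and -1.51. Of all genes 13.9%, 19.8%, 22.7% and 24.7% were lower. The comparisons with mock and with LPS+genipin share the LPS arrays. Wars2, the mitochondrial tryptophan enzyme, passed no test, with -0.07 ± 0.11 in brain, 0.15 ± 0.20 in heart and 0.08 ± 0.12 in kidney for LPS against mock.

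**Figure D1:**
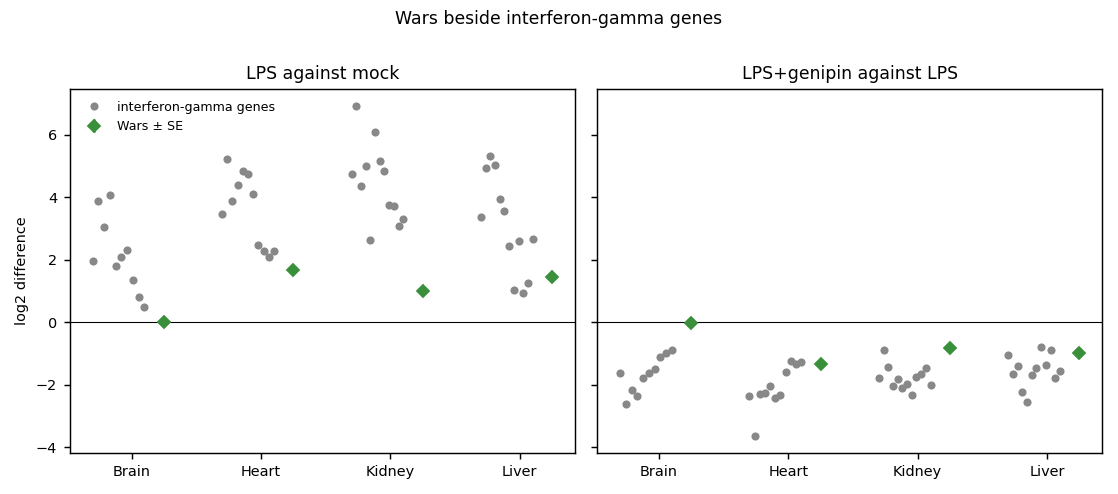
Log2 differences of Wars (diamonds, ± SE, 3 arrays per group) and of the single interferon-gamma genes (points) in the 4 tissues, for LPS against mock at left and LPS+genipin against LPS at right. Wars lies at 0.00 in brain, where all 10 interferon-gamma genes lie above 0 with LPS, and at 1.66, 0.99 and 1.46 in heart, kidney and liver.

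With LPS the cytosolic enzymes called in liver and kidney were all higher, and the mitochondrial enzymes called in heart were all lower. Over all members, Wars included, 4 were higher and 1 lower in brain, where 16.4% of all genes were called higher and 17.5% lower. In heart 5 were higher and 10 lower (background 18.2% and 28.9%). In kidney 10 were higher and 6 lower (background 25.3% and 39%), and in liver 13 were higher and 5 lower (background 29.3% and 36.7%). Read by class, 10 of 16 cytosolic enzymes rose in liver and 0 fell, 8 rose and 0 fell in kidney, 4 rose and 1 fell in heart, and 2 rose and 1 fell in brain. The median cytosolic log2 difference was 0.38 in liver, 0.16 in kidney, 0.18 in heart and 0.06 in brain. At an unadjusted p under 0.05 in limma, 0 cytosolic enzymes were lower in liver and 1 in kidney. Of the mitochondrial enzymes, 0 rose and 9 of 13 fell in heart, 1 rose and 6 of 14 fell in kidney, 2 rose and 5 of 12 fell in liver, and 2 rose and 0 of 15 fell in brain. With low values raised to 511, the 20th percentile of all values, in place of 263, 2 in place of 6 fell in kidney (Tars2 and Yars2). The same floor ended the calls of Mars2 in heart and of Hars2, Tars2 and the riser Nars2 in liver. The fall of Vars2 in liver rested on 1 of its 2 probes. At an unadjusted p under 0.05 in limma, 0 mitochondrial enzymes were higher in heart and 0 lower in brain. The mitochondrial medians were -0.33, -0.15, -0.17 and -0.06. All measured genes had medians of -0.06, -0.08, -0.03 and 0.00 in the same order of tissues. In kidney and liver the share of mitochondrial enzymes that fell was near the share of all genes that fell.

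**Figure D2:**
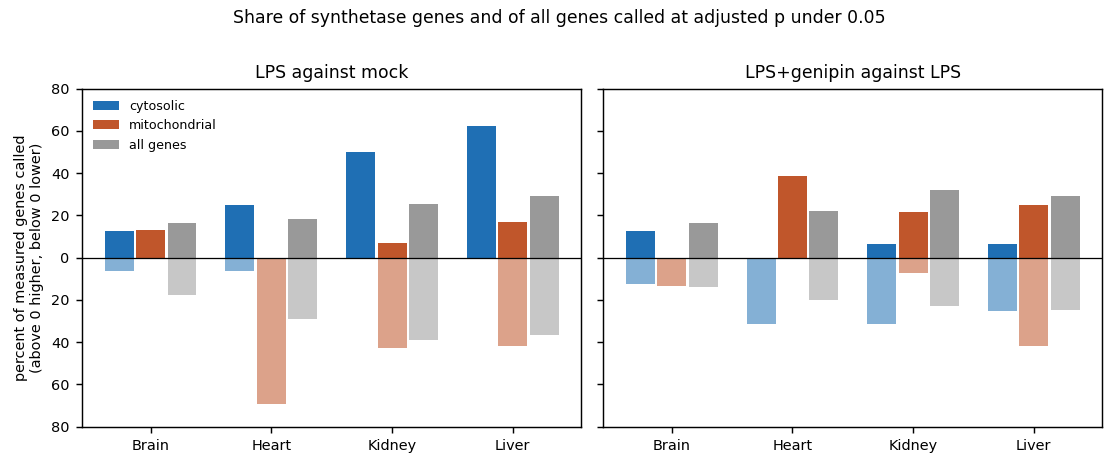
Percent of measured cytosolic, mitochondrial and all genes called higher (above 0) and lower (below 0, paler) at an adjusted p under 0.05 in each tissue, for LPS against mock at left and LPS+genipin against LPS at right; Wars is left out of both classes. With LPS the cytosolic bars reach 10 of 16 higher in liver and the mitochondrial bars 9 of 13 lower in heart.

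Yars, the tyrosine enzyme, rose in heart, kidney and liver with LPS, most in liver. Its liver intensity was 2791, 2730 and 2914 in mock, 5742, 6795 and 5664 with LPS and 3782, 4224 and 4591 with LPS+genipin. All LPS livers lay above all LPS+genipin livers, which lay above all mock livers. The rise was 1.11 ± 0.09 (adjusted p = 2.04e-05), the difference from LPS to LPS+genipin -0.53 ± 0.09 (adjusted p = 0.00211), and LPS+genipin remained 0.57 ± 0.09 (adjusted p = 9.67e-04) above mock. In heart Yars read 3115, 2934 and 3047 in mock, 4250, 4373 and 4003 with LPS and 2589, 2834 and 2737 with LPS+genipin. The LPS hearts stood apart above the others, with 0.47 ± 0.06 (adjusted p = 3.54e-04) for LPS against mock and -0.63 ± 0.06 (adjusted p = 9.79e-05) with genipin added. Kidney gave 0.36 ± 0.07 (adjusted p = 0.00238) for LPS against mock and -0.31 ± 0.07 (adjusted p = 0.00626) for LPS+genipin against LPS, and brain 0.15 ± 0.06 (adjusted p = 0.067) for LPS against mock.

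Farsa, the catalytic subunit of the phenylalanine enzyme, rose in all 4 tissues with LPS. In liver its arrays read 671, 667 and 704 in mock, 1121, 1128 and 1175 with LPS and 1073, 1055 and 1115 with LPS+genipin, and both treated groups lay above mock. LPS raised it by 0.75 ± 0.04 (adjusted p = 2.99e-06), and with LPS+genipin it was still 0.67 ± 0.04 (adjusted p = 8.17e-06) above mock. The heart arrays were 856, 640 and 687 in mock, 1123, 1106 and 1067 with LPS and 814, 796 and 813 with LPS+genipin. There the LPS arrays were highest and the LPS+genipin arrays lay within the mock range, with differences of 0.61 ± 0.10 (adjusted p = 0.00154) and, from LPS to LPS+genipin, -0.44 ± 0.10 (adjusted p = 0.00864). Brain and kidney gave smaller rises of 0.33 ± 0.08 (adjusted p = 0.0182) and 0.12 ± 0.04 (adjusted p = 0.0302). In brain Farsa fell by 0.44 ± 0.08 (adjusted p = 0.0063) from LPS to LPS+genipin. Its partner subunit Farsb rose in liver, by 0.39 ± 0.04 (adjusted p = 8.27e-05), and gave -0.25 ± 0.17 in brain, 0.12 ± 0.06 in heart and 0.07 ± 0.05 in kidney, none of which passed (F test across tissues, adjusted p = 0.00286). In liver Farsb fell by 0.38 ± 0.04 (adjusted p = 1.80e-04) with genipin added to LPS, while Farsa differed by -0.08 ± 0.04 (adjusted p = 0.176).

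Nars, the asparagine enzyme, rose in heart, kidney and liver. Heart intensities were 7481, 8030 and 8351 in mock, 12379, 11488 and 13698 with LPS and 9449, 9440 and 9726 with LPS+genipin, so that the LPS arrays lay above both other groups. The heart rise was 0.65 ± 0.08 (adjusted p = 2.19e-04), followed by -0.39 ± 0.08 (adjusted p = 0.0042) from LPS to LPS+genipin. Liver arrays read 8579, 8631 and 7952 in mock, 11593, 10587 and 12166 with LPS and 14188, 13190 and 10456 with LPS+genipin. Both treated groups exceeded mock, by 0.45 ± 0.11 (adjusted p = 0.00885) and 0.58 ± 0.11 (adjusted p = 0.00268). In kidney the rise was 0.23 ± 0.06 (adjusted p = 0.0076), and in brain the difference was -0.07 ± 0.09 (adjusted p = 0.594).

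Lars and Rars, the leucine and arginine enzymes, belong to the multisynthetase complex. Lars fell in heart and rose in kidney and liver. Its hearts read 16360, 16171 and 16185 in mock and 11131, 14331 and 12882 with LPS, so that every LPS heart lay below the mock hearts, by 0.35 ± 0.09 (adjusted p = 0.0118). Its livers read 3133, 2964 and 3204 in mock, 4803, 4968 and 4246 with LPS and 3495, 3512 and 3760 with LPS+genipin, a rise of 0.59 ± 0.07 (adjusted p = 1.44e-04) followed by -0.38 ± 0.07 (adjusted p = 0.00262). The tissues differed in this response (F test, adjusted p = 2.73e-08). Kidney Lars rose by 0.31 ± 0.07 (adjusted p = 0.00398), and in brain Lars gave 0.00 ± 0.05. Rars rose in liver from 1737, 1772 and 1855 in mock to 2835, 2896 and 2646 with LPS and 2993, 3038 and 3098 with LPS+genipin. Both treated groups lay above mock, by 0.64 ± 0.05 (adjusted p = 1.27e-05) and 0.77 ± 0.05 (adjusted p = 6.82e-06). Rars also rose with LPS by 0.34 ± 0.11 (adjusted p = 0.0476) in brain and 0.20 ± 0.06 (adjusted p = 0.0234) in kidney, and gave 0.00 ± 0.07 in heart.

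Of the complex, 5 members were measured (Eprs, Iars, Kars, Lars and Rars), and 4 of them rose in liver with LPS, 3 in kidney and 1 each in heart and brain, and 1 fell in heart (Lars) and 1 in brain (Iars). The shares that rose, 80%, 60%, 20% and 20%, stood beside 29.3%, 25.3%, 18.2% and 16.4% of all genes, so those of heart and brain were near the background. The shares that fell, 20% in heart and 20% in brain, stood beside 28.9% and 17.5% of all genes. Eprs rose by 0.33 ± 0.07 (adjusted p = 0.0057) in heart and 0.52 ± 0.08 (adjusted p = 8.94e-04) in liver, and Kars, the lysine enzyme, by 0.20 ± 0.04 (adjusted p = 0.00307) in kidney and 0.25 ± 0.05 (adjusted p = 0.00195) in liver. Iars, the isoleucine enzyme, was the only cytosolic member to fall in brain, by 0.48 ± 0.11 (adjusted p = 0.0118), and passed in no other tissue. Of the scaffold genes, Aimp2 fell with LPS in brain (-0.27 ± 0.07), heart (-0.38 ± 0.06) and kidney (-0.25 ± 0.05), and Eef1e1 fell in kidney (-0.67 ± 0.12) and rose in liver (0.31 ± 0.07).

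Sars, the serine enzyme, was the cytosolic member with the largest difference between LPS+genipin and LPS in liver. Its liver arrays read 3721, 3655 and 2996 in mock, 2922, 3197 and 3035 with LPS and 4642, 4692 and 5167 with LPS+genipin. Mock and LPS arrays overlapped (-0.17 ± 0.09, adjusted p = 0.125), and the LPS+genipin arrays lay above both, by 0.66 ± 0.09 (adjusted p = 6.40e-04) over LPS and 0.49 ± 0.09 (adjusted p = 0.0021) over mock. In kidney Sars was 0.22 ± 0.07 (adjusted p = 0.0386) higher with LPS+genipin than with LPS. Aars, the alanine enzyme, had the largest cytosolic rise in kidney, from 2752, 2169 and 3025 in mock to 4137, 4003 and 3520 with LPS and 2600, 2721 and 2575 with LPS+genipin. LPS stood 0.56 ± 0.12 (adjusted p = 0.0038) above mock, and LPS+genipin -0.56 ± 0.12 (adjusted p = 0.00497) from LPS. Gars, the glycine enzyme, rose by 0.38 ± 0.06 (adjusted p = 5.92e-04) in kidney, and Tars, the threonine enzyme, by 0.39 ± 0.10 (adjusted p = 0.00801) in liver. Cars, Hars and Vars, the cysteine, histidine and valine enzymes, passed no test of LPS against mock, and their differences ran from -0.18 (Cars in brain) to 0.32 (Cars in heart).

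Members with the TGATGNAA match did not all move alike. With LPS in liver Aars, Tars and Yars rose, by 0.36 ± 0.12, 0.39 ± 0.10 and 1.11 ± 0.09, while Gars and Iars gave 0.13 ± 0.08 and -0.27 ± 0.15. In kidney Aars, Gars and Yars rose and Iars and Tars gave -0.33 ± 0.14 and -0.08 ± 0.09. Of 10 measured cytosolic members listed as linked to ATF4, 6 rose in liver, 5 in kidney and 3 in heart, and 1 fell in heart (Lars) and 1 in brain (Iars). These shares of 60%, 50% and 30% were near those of all cytosolic enzymes, which include them (62.5%, 50% and 25%), beside 29.3%, 25.3% and 18.2% of all genes. The shares that fell, 10% in heart and 10% in brain, stood beside 28.9% and 17.5% of all genes. The median differences in liver, kidney, heart and brain were 0.38, 0.21, 0.19 and 0.01.

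**Figure D3:**
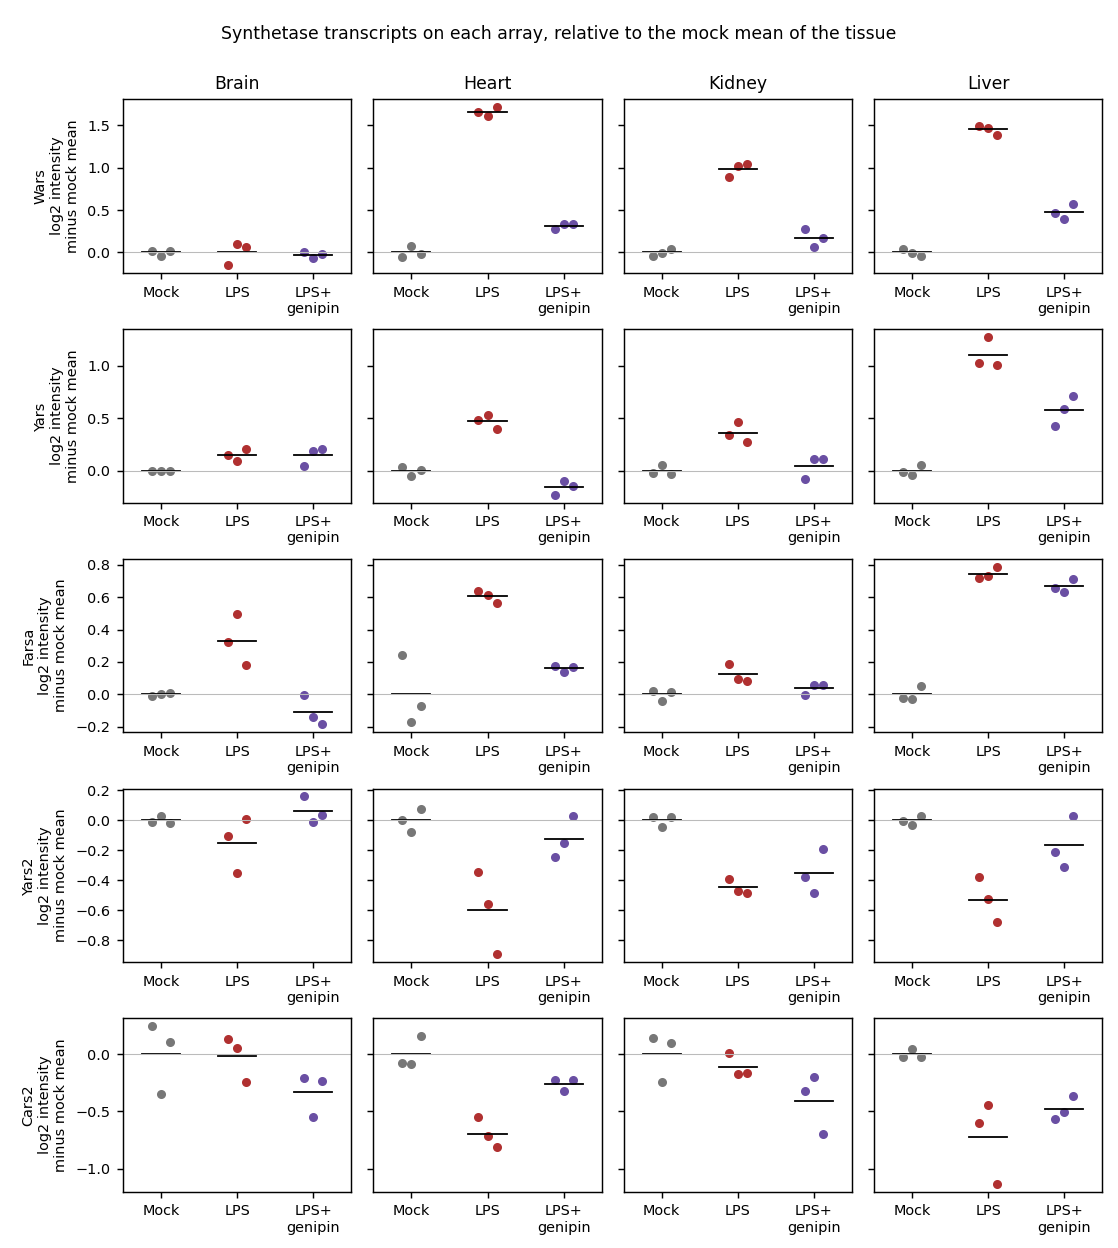
Log2 intensity of Wars, Yars, Farsa, Yars2 and Cars2 on each array minus the mean of the tissue's mock arrays, by treatment and tissue; points are arrays and bars the group means (3 arrays per group). LPS arrays of Wars lie near 1.66, 0.99 and 1.46 in heart, kidney and liver and scatter around 0.00 in brain, while LPS arrays of Yars2 lie below the mock arrays in heart, kidney and liver.

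Among the mitochondrial enzymes Yars2, which charges tyrosine in the organelle, fell with LPS in heart, kidney and liver, where its cytosolic counterpart Yars rose. Heart arrays of Yars2 read 4095, 3874 and 4301 in mock, 3221, 2778 and 2200 with LPS and 3444, 3675 and 4162 with LPS+genipin. All LPS hearts lay below the mock hearts, by 0.60 ± 0.14 (adjusted p = 0.00778), and the LPS+genipin mean was 0.47 ± 0.14 (adjusted p = 0.0249) above LPS. Liver arrays read 2220, 2181 and 2273 in mock, 1711, 1544 and 1389 with LPS and 1924, 1789 and 2270 with LPS+genipin, a difference of -0.53 ± 0.10 (adjusted p = 0.00238) with LPS and 0.36 ± 0.10 (adjusted p = 0.0183) with genipin added. In kidney Yars2 fell by 0.45 ± 0.07 (adjusted p = 0.00102) and, with LPS+genipin, was still -0.35 ± 0.07 (adjusted p = 0.00589) from mock. Brain gave -0.15 ± 0.09 (adjusted p = 0.243).

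Cars2, the mitochondrial cysteine enzyme, whose probe carries an older symbol, fell in heart and liver. The heart arrays were 4084, 4053 and 4803 in mock, 2936, 2619 and 2445 with LPS and 3674, 3439 and 3673 with LPS+genipin. LPS hearts were lowest, at -0.69 ± 0.09 (adjusted p = 4.70e-04) from mock, and LPS+genipin hearts were 0.43 ± 0.09 (adjusted p = 0.00644) above them. In liver the arrays read 1044, 1091 and 1042 in mock and 698, 778 and 483 with LPS, a difference of -0.73 ± 0.16 (adjusted p = 0.00456), and LPS+genipin stayed -0.48 ± 0.16 (adjusted p = 0.031) from mock. The kidney difference with LPS was -0.11 ± 0.15 (adjusted p = 0.55).

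Heart held the broadest fall of the class. Besides Yars2 and Cars2, Lars2 fell by 0.54 ± 0.08 (adjusted p = 0.00108), Tars2 by 0.48 ± 0.09 (adjusted p = 0.00301), Mars2 by 0.39 ± 0.14 (adjusted p = 0.0441), and Fars2, Iars2, Vars2 and Ears2 by 0.35 ± 0.08, 0.33 ± 0.11, 0.30 ± 0.08 and 0.29 ± 0.08. Pars2, Rars2, Sars2 and Wars2 did not pass in heart. Tars2, the threonine enzyme, also fell in kidney (-0.22 ± 0.05, adjusted p = 0.00528) and liver (-0.37 ± 0.13, adjusted p = 0.0387). In kidney Mars2, the methionine enzyme, read 578, 450 and 547 in mock, 469, 332 and 349 with LPS and 599, 589 and 654 with LPS+genipin. Its mock and LPS arrays overlapped although the difference was called (-0.46 ± 0.14, adjusted p = 0.0219), and the LPS+genipin arrays were 0.70 ± 0.14 (adjusted p = 0.00424) above LPS. Ears2 and Rars2 were the other members to fall in kidney, beside Hars2, Tars2 and Yars2, by 0.36 ± 0.13 and 0.17 ± 0.06. With the floor of 511 Ears2 (adjusted p = 0.0726), Rars2 (adjusted p = 0.0562) and Mars2 (adjusted p = 0.196) no longer passed in kidney.

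Hars2, Vars2 and Nars2 were dim, and their values are less firm. Hars2 read 509, 544 and 532 in mock kidney and 306, 270 and 254 with LPS, where 1 array lay under the floor of 263 to which low values were raised. The kidney difference was -0.92 ± 0.09 (adjusted p = 5.82e-05) and the liver difference -0.65 ± 0.09 (adjusted p = 4.44e-04), with liver arrays at 403, 456 and 425 in mock and 277, 270 and 272 with LPS. With the floor set at the 20th percentile of all values, 511, they became -0.05 (adjusted p = 0.0869) and 0.00 (adjusted p = 1). The symbol Hars2 has also been used for Dtd1, and Vars2 for Vars, so either probe may have been named for the other gene. Vars2 had 2 probes that disagreed. The probe used read 657, 637 and 636 in mock liver and 381, 296 and 298 with LPS, a difference of -0.99 ± 0.11 (adjusted p = 1.26e-04), while the other gave -0.12 in liver and -0.55 in kidney, where the first gave -0.06. Nars2, the asparagine enzyme, was under the floor on all mock livers and read 459, 498 and 681 with LPS, at least 2.05-fold higher (adjusted p = 5.97e-04). With the higher floor that difference was 0.14 (adjusted p = 0.332).

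Sars2, which charges serine in mitochondria, rose with LPS in brain, kidney and liver. Kidney arrays were 972, 1160 and 1079 in mock, 1418, 1349 and 1607 with LPS and 1069, 927 and 930 with LPS+genipin, and the LPS arrays lay above both other groups. LPS raised it by 0.34 ± 0.08 (adjusted p = 0.0121) in brain, 0.45 ± 0.09 (adjusted p = 0.00375) in kidney and 0.39 ± 0.13 (adjusted p = 0.0289) in liver. With genipin added it fell by 0.30 ± 0.08 (adjusted p = 0.0234) in brain, 0.58 ± 0.09 (adjusted p = 0.00131) in kidney and 0.60 ± 0.13 (adjusted p = 0.00552) in liver. In liver the arrays read 915, 1007 and 1051, 1200, 1129 and 1595 and 903, 860 and 799 for mock, LPS and LPS+genipin, and LPS+genipin against mock did not pass (-0.21 ± 0.13, adjusted p = 0.187). Pars2, the proline enzyme, rose in brain by 0.28 ± 0.05 (adjusted p = 0.00318) and fell by 0.32 ± 0.05 (adjusted p = 0.00202) with genipin added.

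**Figure D4:**
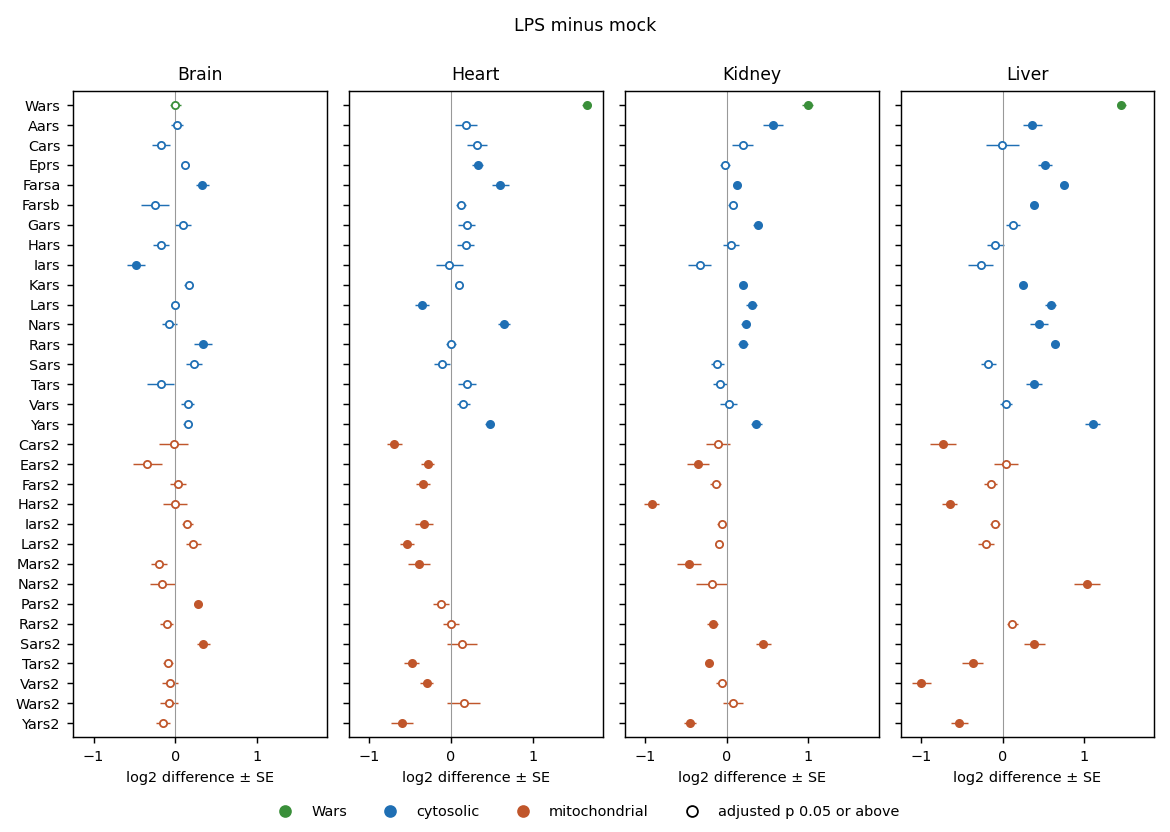
Log2 difference between LPS and mock (± SE, 3 arrays per group) for every measured member in each tissue, with Wars, cytosolic and mitochondrial enzymes in separate colours and filled symbols for an adjusted p under 0.05. Filled cytosolic symbols lie to the right in kidney and liver (8 and 10 of 16), and filled mitochondrial symbols to the left in heart (9 of 13).

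Cytosolic and mitochondrial enzymes for the same amino acid were set side by side, a comparison added after the values were seen. With LPS both enzymes were called and moved in opposite directions for 2 of 10 measured pairs in heart (Farsa with Fars2 and Yars with Yars2), 2 of 12 in kidney (Rars with Rars2 and Yars with Yars2) and 2 of 11 in liver (Tars with Tars2 and Yars with Yars2). In each of these the cytosolic enzyme rose. With the higher floor Rars2 in kidney (adjusted p = 0.0562) and Tars2 in liver (adjusted p = 0.0611) no longer passed. Their pairs then no longer counted. With Wars left out, 25%, 50% and 62.5% of cytosolic enzymes rose in heart, kidney and liver. Of the mitochondrial ones 69.2%, 42.9% and 41.7% fell. Among all genes 18.2%, 25.3% and 29.3% rose and 28.9%, 39% and 36.7% fell in the same tissues. Whether opposite pairs were more frequent than the class shares alone would give was not tested. In brain 4 of 12 measured pairs held a called member, with 1 call in each, and Pars2, which also passed, was in no pair. Both enzymes moved the same way for leucine in heart (-0.35 and -0.54) and for asparagine in liver (0.45 and, as a lower bound, 1.03). The higher floor ended the liver call of Nars2 (adjusted p = 0.332).

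Some other genes of mitochondrial translation also fell with LPS, in heart, kidney and liver and in brain too. Of the partners of mitochondrial charging and elongation (the amidotransferase subunits Gatb, Gatc and Qrsl1, the formyltransferase Mtfmt and the elongation factors Tufm, Tsfm and Gfm1), 5 of 6 fell with LPS in heart, 5 of 7 in kidney, 4 of 5 in liver and 2 of 7 in brain, and the others did not pass. Of all genes 28.9%, 39%, 36.7% and 17.5% fell in the same order of tissues. Gatc, an amidotransferase subunit, gave -0.49 ± 0.09 in heart, -0.67 ± 0.07 in kidney and -1.03 ± 0.09 in liver. Of 5 measured cytosolic elongation factors, 2 were lower in heart (40%, beside 28.9% of all genes), 1 was higher and 1 lower in kidney (20% each, beside 25.3% and 39%) and 1 lower in liver (20%, beside 36.7%), and in brain they ran from -0.06 to 0.28 without passing. Genes of the ATF4 amino acid response rose in 10 of 14 cases in liver, 14 of 17 in kidney, 11 of 18 in heart and 5 of 18 in brain, and 2 fell in kidney, 3 in heart and 1 in brain. That is 71.4%, 82.4%, 61.1% and 27.8% higher, beside 29.3%, 25.3%, 18.2% and 16.4% of all genes. The shares lower in kidney, heart and brain, 11.8%, 16.7% and 5.56%, stood beside 39%, 28.9% and 17.5% of all genes. Asns, asparagine synthetase, rose by 2.57 ± 0.08 in heart and 1.62 ± 0.06 in kidney, Atf4 itself by 1.70 ± 0.06 in liver, and Chac1, a glutathione-degrading enzyme, by 2.15 ± 0.06 in liver. Cebpb, which acute inflammation is also known to induce, rose in all 4 tissues, by 1.46 ± 0.05, 1.38 ± 0.05, 2.20 ± 0.06 and 1.17 ± 0.07.

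Brain gave the fewest calls. Besides Farsa, Rars, Pars2 and Sars2, which rose, and Iars, which fell, no member passed with LPS. The brain groups also differed in marker levels. Summed intensity of 4 measured skeletal muscle markers was 112506 to 118985 on mock brains, 3416 to 3680 with LPS and 3749 to 4086 with LPS+genipin. The 4 microglial markers summed to 12645 to 13088, 4648 to 5428 and 9193 to 9387 in the same order. The 3 measured hepatocyte markers summed to 65354 to 65962, 3908 to 4946 and 67200 to 67576. They include Ttr, a transcript of the choroid plexus too. With LPS 1 of the 3 was lower than mock (-4.46) and 2 were higher (0.74 and 2.02), with Alb at the floor in mock. The sum therefore follows 1 bright gene. The part of these marker differences in the brain values was not tested. The brain count of 5 depended on single arrays: it was 3 without any 1 of the mock arrays, and 8 without the first LPS or the first LPS+genipin array.

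Marker levels differed between groups in the other tissues too. In heart the 3 measured adipocyte markers summed to 17832 to 19667 in mock, 103522 to 109080 with LPS and 25939 to 28152 with LPS+genipin. The 2 measured atrial markers summed to 3983 to 4358, 126373 to 130967 and 3238 to 3322, so the LPS hearts alone carried them at a high level. Summed neutrophil intensity in liver went from 3598 to 3856 (2 measured) in mock to 80909 to 86197 with LPS and 57212 to 62162 with LPS+genipin, and in heart from 2284 to 2488 (3 measured) to 39892 to 45109 and 16747 to 18012. Hepatocyte markers in liver summed to 345203 to 350029, 353393 to 358431 and 341211 to 346287. In kidney the tubule markers summed to 253121 to 255524, 242717 to 249709 and 244354 to 247800 in mock, LPS and LPS+genipin. Hepatocyte markers in liver and tubule markers in kidney are bright, and any near the scanner's limit could show little change. Markers of other cells also differed in kidney. The 1 measured neutrophil marker read 248 to 363 in mock kidney, 4372 to 6317 with LPS and 4481 to 4504 with LPS+genipin. There 4 measured hepatocyte markers, with Apoa1 at the floor in mock, summed to 20638 to 27989, 49039 to 54078 and 58712 to 64844, and 3 adipocyte markers to 25871 to 27232, 33355 to 38209 and 51502 to 59347. The 2 measured skeletal muscle markers of kidney stood at 750 to 906, 943 to 1049 and 3691 to 3881, so LPS+genipin kidneys alone carried more of them. The part of these marker differences in the heart, kidney and liver values of the synthetases was not tested.

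LPS+genipin was compared with LPS alone to see how the synthetases stood when genipin followed LPS. In heart the cytosolic enzymes that differed were all lower and the mitochondrial ones all higher than with LPS alone. There 5 cytosolic enzymes were lower (Eprs, Farsa, Kars, Nars and Yars) and 5 mitochondrial ones higher (Cars2, Fars2, Lars2, Tars2 and Yars2). With Wars, 5 heart members were higher and 6 lower, beside 22.1% and 19.8% of all genes. In kidney 4 were higher and 7 lower (background 32% and 22.7%), in liver 4 higher and 10 lower (background 29.3% and 24.7%), and in brain 2 higher and 4 lower (background 16.3% and 13.9%). These differences share the LPS arrays with LPS against mock, so the 2 sets of values are not independent.

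Kidney enzymes lower with LPS+genipin than with LPS were, besides Wars, Aars, Farsb, Gars, Hars and Yars among the cytosolic ones and Sars2 among the mitochondrial ones. Farsb, which had not differed detectably with LPS (0.07 ± 0.05), stood at -0.31 ± 0.05 (adjusted p = 0.00156), and Hars at -0.31 ± 0.10 (adjusted p = 0.0314). Sars was the cytosolic enzyme that was higher, and Hars2 (0.45 ± 0.09, adjusted p = 0.00365), Iars2 (0.19 ± 0.05, adjusted p = 0.0133) and Mars2 were the mitochondrial ones. In liver Eprs fell by 0.41 ± 0.08 (adjusted p = 0.00458) and Lars, Farsb and Yars also fell. The mitochondrial enzymes of liver split, with 3 higher (Hars2, Vars2 and Yars2) and 5 lower (Iars2, Lars2, Nars2, Rars2 and Sars2). Vars2 rested on its probe: the one used gave 0.37 and the other -0.38. With the floor of 511 Hars2 in kidney and Hars2, Vars2 and Nars2 in liver no longer passed (adjusted p of 1, 1, 1 and 0.366). Iars2, the isoleucine enzyme, gave -0.40 ± 0.07 (adjusted p = 0.00159) and Rars2, the arginine enzyme, -0.30 ± 0.07 (adjusted p = 0.00635). Neither had differed detectably with LPS alone.

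In brain Eprs and Nars were higher with LPS+genipin than with LPS, by 0.22 ± 0.04 (adjusted p = 0.00716) and 0.33 ± 0.09 (adjusted p = 0.0322), and Farsa, Vars, Pars2 and Sars2 were lower. Vars, the valine enzyme, differed by -0.26 ± 0.08 (adjusted p = 0.0426), and with the replicate number as a block it no longer passed (adjusted p = 0.0522). This count of 6 became 10 without the second LPS array and 3 without the first LPS+genipin array. Of the ATF4 amino acid response, 9 of 18 measured genes were lower in heart and 1 higher, 8 lower and 3 higher in kidney, 6 lower and 1 higher in liver, and 2 lower and 2 higher in brain. The shares lower, 50%, 47.1%, 42.9% and 11.1%, stood beside 19.8%, 22.7%, 24.7% and 13.9% of all genes. Asns fell by 2.29 ± 0.08 in heart, where Nupr1, a stress-induced chromatin protein, fell by 2.38 ± 0.10. The mitochondrial charging partners were higher in 3 of 6 cases in heart, 3 of 7 in kidney, 1 of 5 in liver and 1 of 7 in brain, with 1 lower, Gatb in kidney. Their shares higher, 50%, 42.9%, 20% and 14.3%, stood beside 22.1%, 32%, 29.3% and 16.3% of all genes, and those of liver and brain lay below that background.

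**Figure D5:**
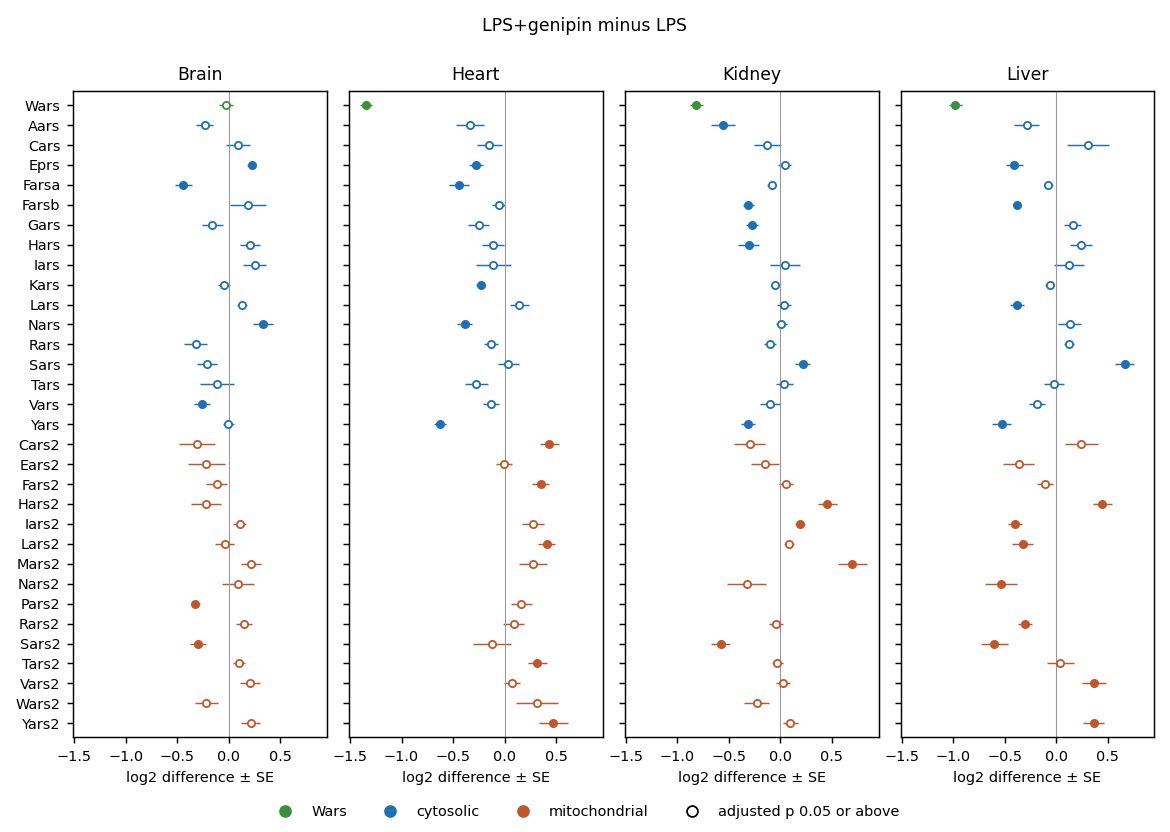
Log2 difference between LPS+genipin and LPS (± SE, 3 arrays per group) for every measured member in each tissue, with the same colours and filled symbols for an adjusted p under 0.05. Wars lies furthest to the left in heart (-1.34), kidney (-0.81) and liver (-0.98), and in heart filled cytosolic symbols lie left of 0 and filled mitochondrial ones right of it.

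Against mock, the LPS+genipin arrays gave the members that differed after both agents. Liver had the most: 11 members were higher and 6 lower than mock (background 28.2% and 32.2%). The 9 cytosolic enzymes among them were Farsa, Gars, Kars, Lars, Nars, Rars, Sars, Tars and Yars, from 0.18 (Kars) to 0.77 (Rars), beside Wars and the mitochondrial Nars2. Lower were Cars2, Fars2, Iars2, Lars2, Rars2 and Vars2, with Lars2 at -0.53 ± 0.10 (adjusted p = 0.00233) and Iars2 at -0.50 ± 0.07 (adjusted p = 3.52e-04). In kidney 3 were higher (Kars, Lars and Nars) and 6 lower (Farsb, Ears2, Hars2, Rars2, Tars2 and Yars2), beside 20% and 24.2% of all genes. Hars2 there read 509 to 544 in mock and 342 to 430 with LPS+genipin, so most of its values lie under 511. Heart had 2 higher (Nars and Wars) and 1 lower (Ears2), beside 7.44% and 12.2%, and brain 2 higher (Eprs and Iars2) and 0 lower (3 at an unadjusted p under 0.05 in limma), beside 8.8% and 5.61%. Eprs in brain stood 0.35 ± 0.04 (adjusted p = 0.00162) above mock, from 8607, 8705 and 8918 in mock to 11617, 10987 and 10739. The heart count of 3 became 1 on leaving out the second or the third mock array, the first LPS array, or the first or the second LPS+genipin array, and 5 on leaving out the third LPS array. The brain count of 2 became 1 on leaving out the second or the third mock array, the first LPS array or the first LPS+genipin array.

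Across tissues, the LPS response differed for 18 of the 27 members measured in all 4 (F test, adjusted p under 0.05), against 76.8% of the 6861 genes tested. The members past it with at least a 1.5-fold change included Wars, Lars, Yars, Vars2, Farsa, Rars and Nars. Eprs and Lars2 also passed, at adjusted p of 1.17e-04 and 4.86e-05, Eprs rising in heart and liver with -0.02 in kidney, and Lars2 falling in heart with 0.22 in brain. The members that did not pass were Cars, Gars, Hars, Iars, Kars, Vars, Ears2, Rars2 and Sars2. Sars2 gave 0.34, 0.13, 0.45 and 0.39 in brain, heart, kidney and liver (adjusted p = 0.413), and Kars 0.16, 0.10, 0.20 and 0.25 (adjusted p = 0.258).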

How the data were processed

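Gene expression was measured on 36 one-colour arrays (Cy5) of 18183 probes. The deposited values are linear intensities that the authors normalized, as nearly equal array medians within a tissue show. The submitters' processing notes name limma, with no version; no source used here states the scanner, the background correction or the probe filter. Probes were named through the platform annotation: 14817 carried 1 symbol and 3366 none, and 2318 symbols were updated through synonyms (GRCm38.p6).

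Here values under the 5th percentile of the table (263) were set to it, and log2 was taken. A gene measured by several probes was read from the one with the highest mean. Values at 60000 or above counted as saturated. The 9 arrays of a tissue were modelled together, with 1 mean per group, in limma 3.58.1 under R 4.3.3, with two-sided p-values adjusted by the Benjamini-Hochberg method over all genes of the tissue: 10224 (brain), 9669 (heart), 9614 (kidney) or 8641 (liver). An F test over 36 arrays compared the LPS response among tissues. The fit was tested on simulated data. The labels do not say that a replicate number marks shared material. Same-numbered arrays deviated together (every correlation over 0.1) in 1 of 12 pairs of groups, brain LPS and LPS+genipin (0.142 to 0.192), where the fit with the replicate number as a block is given if it changes a call. Members, lists and tests were chosen with earlier results of these data known. Members past a 1.5-fold change at an adjusted p under 0.05, in LPS against mock or LPS+genipin against LPS, are described array by array. Other members are given by counts and ranges, with the largest rise and fall of each class named. A planned comparison of protein sequences was not run, and 1 promoter stretch is not reported here. Figures were drawn in matplotlib 3.10.9 with pandas 2.3.3 and numpy 2.4.6 under Python 3.11.15.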

Additional observations from a re-analysis of the deposited data

Results flagged for a closer look

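For 10 members described array by array the response to LPS differed among the 4 tissues by the F test, with p adjusted over 6861 genes. Wars had the smallest p, 3.62e-15, with no detectable change in brain and rises in the other 3 tissues. Lars (2.73e-08) fell in heart and rose in kidney and liver. Yars (2.98e-08), Farsa (3.39e-05), Rars (8.90e-05) and Nars (1.05e-04) differed in the size of their rise, with Rars at 0.00 in heart, Nars at -0.07 in brain and Yars at 0.15 in brain, none of which passed. Vars2 (6.61e-07) fell most in liver, on 1 of its 2 probes. Cars2 (0.00475) fell in heart and liver and Yars2 (0.0459) in heart, kidney and liver. Sars (0.0318) passed with LPS in no tissue, from -0.17 in liver to 0.23 in brain. Of all genes tested, 76.8% passed the same test.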

How the results depend on the processing

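Each count of members called was recomputed with no floor, with a floor at the 20th percentile (511), without dim genes, with the mean of all probes, with each array centred on its median, with an intensity trend and robust variance, with the replicate number as a block, and without each array in turn. The brain count for LPS+genipin against mock went from 2 to 1 with no floor and to 1 with the higher floor. The replicate block took the heart count for LPS+genipin against mock from 3 to 1 and moved no other count by over 1.5 times. In brain, where the numbers of LPS and LPS+genipin arrays paired, the block took that count from 6 to 5, ending the call of Vars. In the other group pairs not every correlation between same-numbered arrays was over 0.1, and the values ran from -0.524 to 0.292. Between LPS and LPS+genipin arrays 1, 2 and 3 they were -0.501, 0.249 and -0.524 in heart. In liver the same pairs gave -0.466, 0.0522 and -0.522. The source of these negative values was not tested. Without 1 array, the counts ran (LPS less mock first, then LPS+genipin less LPS, then LPS+genipin less mock) over 3 to 8, 3 to 10 and 1 to 3 in brain, 12 to 15, 9 to 13 and 1 to 5 in heart, 12 to 15, 9 to 11 and 6 to 10 in kidney and 16 to 18, 12 to 15 and 13 to 19 in liver, and the count across tissues over 14 to 18. The 26 named differences were those called with at least a 1.5-fold change in these same data, so smaller calls are not among them. Of their 416 refits, 413 kept their direction and call. The higher floor ended the other 3: Hars2 in kidney (-0.05, adjusted p = 0.0869) and in liver (0.00, adjusted p = 1) and Nars2 in liver (0.14, adjusted p = 0.332), since most of their values lie under it. With it the kidney members lower with LPS numbered 2 in place of 6. Of the 4 lost there, Hars2 and Mars2 each had 4 of 6 arrays under 511, while Ears2 and Rars2 had 0, kept their differences and moved only in adjusted p. Elsewhere it also ended calls of Rars, Nars, Vars and Iars2 in brain, Mars2 in heart, Hars and Sars in kidney and Tars2 in liver, at adjusted p of 0.0503 to 0.0737. For LPS+genipin against mock it left no difference in liver Nars2, where every value lay under 511. Signal near the floor limits Hars2, Nars2, Mars2, Vars2 and Wars2. It also limits Pars2 in heart (268 to 350) and Ears2 in brain (218 to 532).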
